A study of Mus musculus with 6 samples.

Results

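Toll-like receptors and Cd14 were followed in ear skin of mice with hapten-induced contact dermatitis. The set holds 10 of the 19309 genes of the deposited expression table, taken by gene symbol: the receptors of the cell surface Tlr1, Tlr2, Tlr4 and Tlr6, the endosomal receptors Tlr3, Tlr7, Tlr8, Tlr9 and Tlr13, and the co-receptor gene Cd14. The samples are 6 whole-ear RNA libraries from 3 C57BL/6 mice aged 6 to 8 weeks when selected. Every animal was sensitised with 25 µL of 0.5% DNFB (the hapten 2,4-dinitrofluorobenzene, which couples to skin proteins and is then recognised by T cells). From day 6, for 6 days, the left ear received 10 µL of 0.25% DNFB (3 DNFB ears) and the right ear the same volume of solvent, 80% acetone with 20% olive oil (3 vehicle ears). The vehicle ears therefore came from sensitised animals whose other ear was challenged, and the treatment and the side of the head cannot be told apart.

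Toll-like receptors are membrane proteins with a leucine-rich ectodomain that binds microbial molecules or products of damaged cells and a cytoplasmic TIR domain that recruits adaptors such as MyD88 and TRIF. Signalling through these adaptors activates NF-kappaB, AP-1 and interferon regulatory factors. Surface receptors detect lipopeptides and lipopolysaccharide, whereas endosomal receptors, which need the chaperone UNC93B1, detect nucleic acids. In skin the family is known from macrophages, dendritic cells, neutrophils, keratinocytes and fibroblasts, and haptens are studied for their ability to engage it through endogenous ligands.

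The libraries held 19556754 to 20336945 estimated read counts. Within groups the correlation of log2 CPM (read counts scaled to a library of fixed size) across genes was 0.985 to 0.992 for vehicle ears and 0.962 to 0.987 for DNFB ears, and between groups 0.842 to 0.913. For 9 of the 10 genes the DNFB ear of mouse 3 was the lowest of the DNFB ears, and its values are given separately. Among the tissue markers that did not pass the test, Krt5, a basal keratinocyte keratin, measured 2308 ± 305 CPM in vehicle ears against 2411 ± 511 CPM in DNFB ears, and Col1a2, a fibroblast collagen gene, 2564 ± 229 and 2705 ± 265 CPM (mean ± SD, n = 3 per group throughout). Other markers of these cell types were lower in DNFB ears: Krt10, Lor and Flg2 among keratinocyte markers, and Dcn and Dpt among fibroblast markers.

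Of the 10 genes, 9 were higher in DNFB ears and none was lower, by edgeR's quasi-likelihood test at a Benjamini-Hochberg adjusted p of 0.05 over the 15317 genes tested. Across all genes tested 51.3% were called, 25.9% higher and 25.4% lower. All 10 had enough counts to be tested, and Tlr3 was the gene that did not pass. The same 9 genes changed more than 2-fold, against 13.0% of all genes tested, and in these 9 the lowest DNFB ear lay above the highest vehicle ear, against 30.6% of all genes tested. The median log2 fold change of the 10 genes was 2.84, beside −0.02 for all genes tested. In whole tissue, more cells of a type and more RNA per cell cannot be told apart, and this holds for every change reported here.

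**Figure D1:**
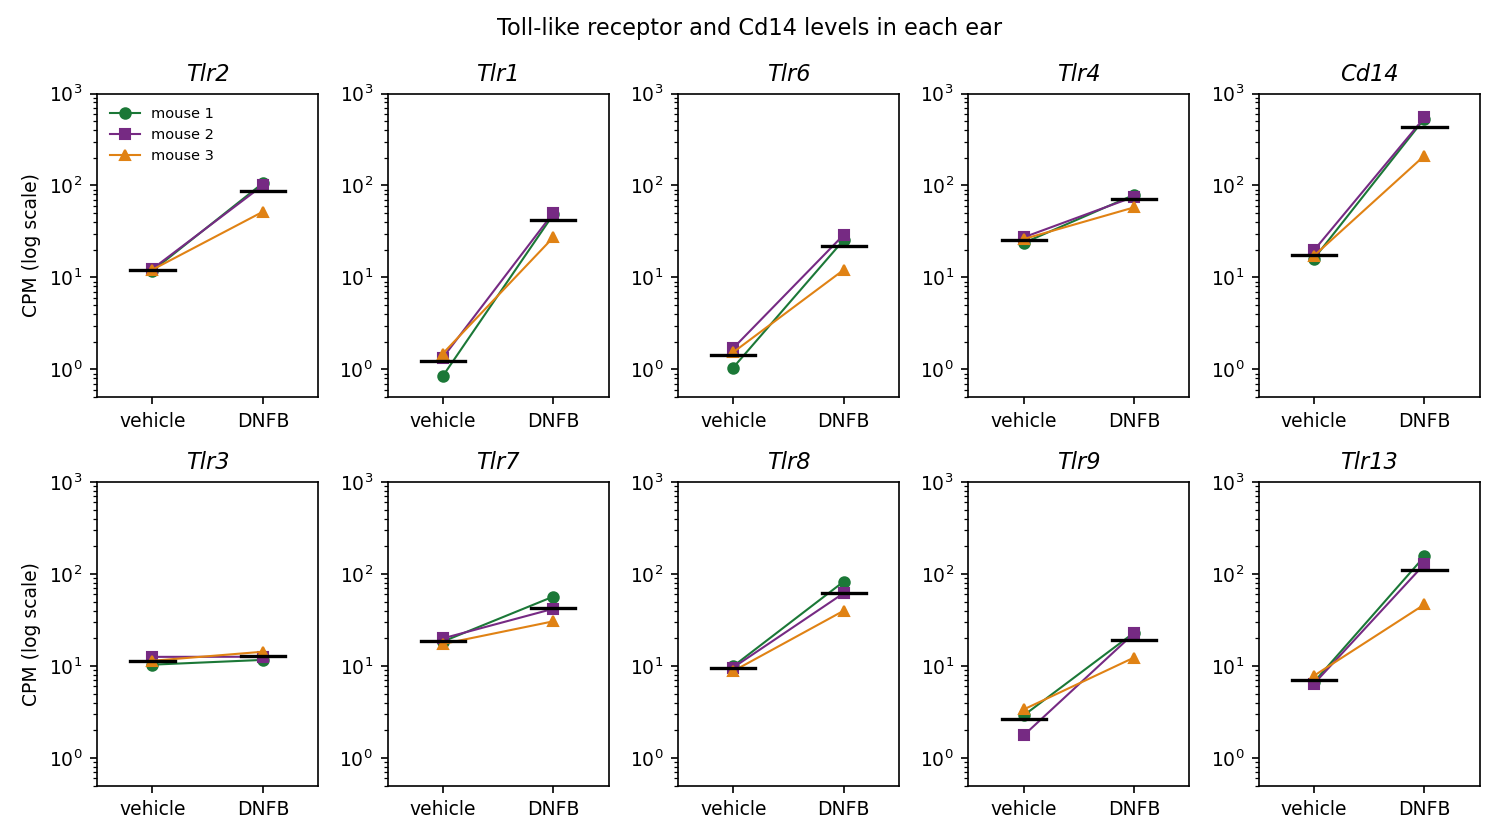
Level of each of the 10 genes in every ear, in CPM on a log axis, with vehicle and DNFB ears of 1 mouse joined by a line (circles mouse 1, squares mouse 2, triangles mouse 3) and black bars at the group means. In all panels but that of Tlr3 the DNFB ears lie above the vehicle ears, and the DNFB ear of mouse 3 is the lowest of the 3 DNFB ears.

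Tlr2 encodes the shared subunit of the lipopeptide receptors. It measured 11.8, 12.4 and 12.2 CPM in the vehicle ears of mice 1, 2 and 3, and 106, 100.5 and 51.9 CPM in their DNFB ears. The vehicle ears were nearly equal, and the DNFB ear of mouse 3 was far below the other DNFB ears yet well above every vehicle ear. The fitted change was 7.10-fold (95% interval 4.56 to 11.1, log2 fold change 2.83 ± 0.27 SE, adjusted p = 0.000342).

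Tlr1 encodes the partner with which TLR2 binds triacylated lipopeptides. Its level was 0.849, 1.34 and 1.49 CPM in the vehicle ears of mice 1, 2 and 3 and 48.5, 50.5 and 27.3 CPM in the DNFB ears. This is the largest fold change of the 10 genes, 34.1-fold (95% interval 20.0 to 58.2, log2 fold change 5.09 ± 0.33, adjusted p = 8.96e-05), and 134 of all genes tested, 0.875%, had a larger log2 fold change. Tlr6, the partner for diacylated lipopeptides, measured 1.05, 1.71 and 1.54 CPM in vehicle ears against 25.6, 29.1 and 12.1 CPM in DNFB ears. Its change was 15.5-fold (95% interval 8.24 to 29.2, log2 fold change 3.95 ± 0.39, adjusted p = 0.000360). Within animals Tlr1 was 57.1-, 37.6- and 18.3-fold higher in mice 1, 2 and 3, and Tlr6 24.4-, 17.1- and 7.87-fold.

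Tlr1 and Tlr6 are adjacent paralogs on chromosome 5, and their split is uncertain because reads of 50 bases can come from either. Of the 50-base words in Tlr1 transcripts of the GENCODE M21 annotation (build GRCm38), 15.4% also occur in transcripts of another gene, and of those in Tlr6 transcripts 12.3%, with 454 words common to both. The longest open reading frames of the genes hold 6 identical stretches of at least 50 bases, 748 bases in all. The longest covers bases 1468 to 1696 of the Tlr1 frame and 1507 to 1735 of the Tlr6 frame, and is shown because a read within it cannot be assigned by sequence.
Tlr1 and Tlr6, identical stretch of 229 bases: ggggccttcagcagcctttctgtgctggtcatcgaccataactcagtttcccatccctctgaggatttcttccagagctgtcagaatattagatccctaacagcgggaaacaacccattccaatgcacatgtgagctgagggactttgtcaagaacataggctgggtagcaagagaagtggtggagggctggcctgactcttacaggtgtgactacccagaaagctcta
The deposited counts of both genes carry decimals in all libraries but the DNFB ear of mouse 3. Summed, which does not depend on the split, Tlr1 plus Tlr6 measured 1.90, 3.05 and 3.03 CPM in vehicle ears against 74.0, 79.6 and 39.5 CPM in DNFB ears. The sum was 24.2-fold higher between group means, and 39.0-, 26.1- and 13.0-fold higher within mice 1, 2 and 3.

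Tlr4 encodes the lipopolysaccharide receptor, which signals as a complex with MD-2, the product of Ly96. It measured 23.7, 27.3 and 26.2 CPM in vehicle ears against 79.1, 75.5 and 57.8 CPM in DNFB ears, so the groups were apart and the DNFB ears closer to one another than for the other genes that rose. The change was 2.75-fold (95% interval 2.19 to 3.46, log2 fold change 1.46 ± 0.14, adjusted p = 0.000337). Cd14, whose product hands lipopolysaccharide to TLR4 and also assists other receptors of the family, stood at 16.0, 19.7 and 17.2 CPM in vehicle ears against 534, 549 and 211 CPM in DNFB ears. It rose 24.4-fold (95% interval 12.9 to 46.3, log2 fold change 4.61 ± 0.39, adjusted p = 0.000222). The DNFB ear of mouse 3 held 0.390 times the mean of the other DNFB ears for Cd14, and 0.748 times for Tlr4.

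Among the endosomal receptors, Tlr13, which recognises bacterial ribosomal RNA in mice, changed most. Its vehicle ears measured 6.69, 6.41 and 7.84 CPM and its DNFB ears 155, 128 and 46.7 CPM. The DNFB ears were spread widely, with mouse 3 at 0.329 times the mean of the other DNFB ears, the lowest such value of the 10 genes. The change was 15.8-fold (95% interval 7.60 to 32.7, log2 fold change 3.98 ± 0.45, adjusted p = 0.000591).

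Tlr9, the receptor for DNA with unmethylated CpG, measured 2.90, 1.76 and 3.37 CPM in vehicle ears against 23.0, 22.7 and 12.4 CPM in DNFB ears, 7.21-fold higher (95% interval 4.23 to 12.3, log2 fold change 2.85 ± 0.33, adjusted p = 0.000641). Its vehicle ear of mouse 2 was the lowest, so the increase within animals was largest there, at 12.9-fold against 7.95-fold in mouse 1 and 3.67-fold in mouse 3. Tlr7 and Tlr8 are neighbours on the X chromosome and encode receptors for single-stranded RNA and its breakdown products. Tlr8 measured 9.94, 9.62 and 8.80 CPM in vehicle ears against 82.8, 61.9 and 39.9 CPM in DNFB ears, 6.51-fold higher (95% interval 4.24 to 9.99, log2 fold change 2.70 ± 0.26, adjusted p = 0.000352). Tlr7 measured 18.4, 20.0 and 17.4 CPM in vehicle ears against 56.8, 41.9 and 30.6 CPM in DNFB ears. It had the smallest called change of the set, 2.32-fold (95% interval 1.63 to 3.31, log2 fold change 1.21 ± 0.22, adjusted p = 0.00364), and was the only one of the 9 genes to lose its call in any fit, with an adjusted p of 0.0604 without both ears of mouse 2.

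Tlr3, the receptor for double-stranded RNA, did not pass. It measured 10.3, 12.6 and 11.4 CPM in vehicle ears against 11.6, 12.6 and 14.3 CPM in DNFB ears, so the groups overlapped, and the DNFB ear of mouse 3 was here the highest of all. The ratio was 1.12 with a 95% interval of 0.900 to 1.40 (adjusted p = 0.331), so the interval leaves out a rise as large as the lower bound of Tlr7, the smallest of those called. Some 5.30% of the 50-base words of Tlr3 transcripts also occur in the predicted gene Gm45542, which may share its reads.

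**Figure D2:**
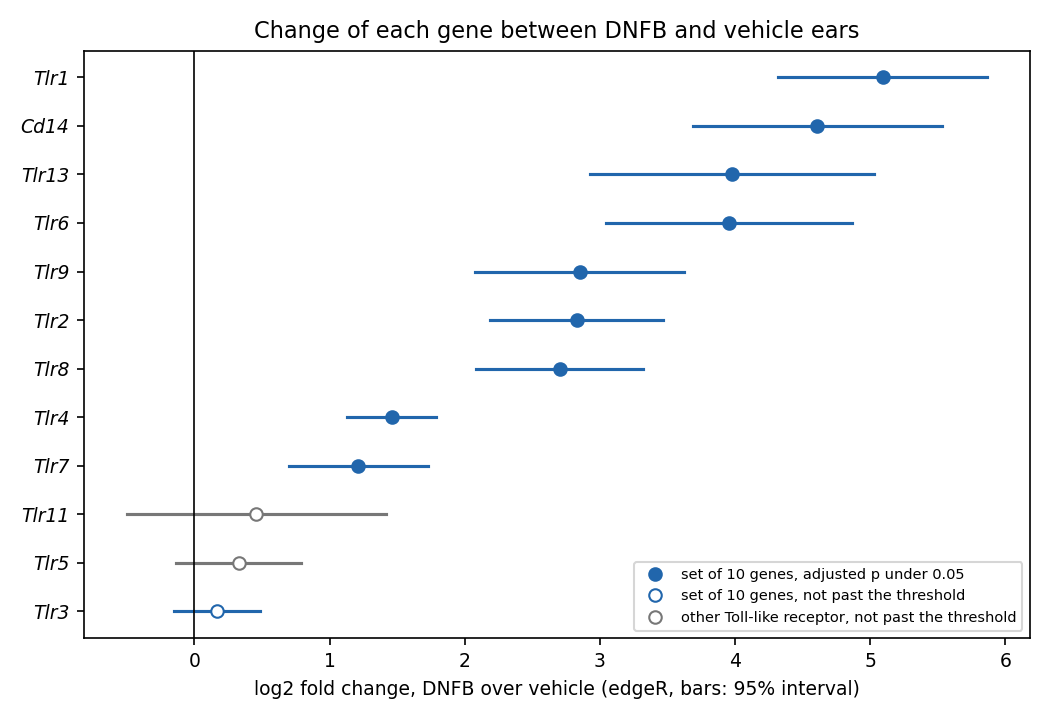
Log2 fold change of DNFB over vehicle ears with its 95% interval for the 10 genes (blue) and for Tlr5 and Tlr11 (grey), from the edgeR fit over all genes, with filled points for an adjusted p under 0.05. Values run from 0.17 for Tlr3 to 5.09 for Tlr1, and 9 of the 10 intervals of the set lie above 0. Tlr12, which was called higher at low counts (log2 fold change 4.83, adjusted p = 0.00514), is not drawn.

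Promoter sequences of the RefSeq annotation (build GRCm38.p6, 250 bases before to 50 after an annotated start) were at hand for 7 of the 10 genes, in 9 windows. They were searched on both strands for the NF-kappaB consensus, for GAGGAAGT, a sequence bound by the myeloid factor PU.1, and for the core of interferon-stimulated response elements (GAAA, then any 2 bases, then GAAA). These occurred in 8.46%, 3.20% and 3.44% of all 32851 windows of this length. The 5 windows with any of them are shown so that their letters can be set beside the changes, with the matches in capitals. The Tlr2 window has overlapping NF-kappaB matches that begin 173 and 172 bases before the start and another 8 bases before it. Those of Tlr1 and Tlr9 have GAGGAAGT, on the reverse strand for Tlr9. That of Tlr6 has a pair of overlapping interferon-stimulated core matches on the reverse strand, and that of Tlr3, which did not pass, has an NF-kappaB match. The matches are letters only, and binding was not measured.
Tlr2, chr3:83841559-83841858, minus strand: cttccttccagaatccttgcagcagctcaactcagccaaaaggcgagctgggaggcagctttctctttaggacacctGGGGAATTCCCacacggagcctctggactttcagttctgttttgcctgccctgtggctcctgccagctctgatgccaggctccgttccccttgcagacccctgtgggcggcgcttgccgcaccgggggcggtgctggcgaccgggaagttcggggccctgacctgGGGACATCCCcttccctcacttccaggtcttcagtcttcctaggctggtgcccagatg
Tlr1, chr5:64933509-64933808, minus strand: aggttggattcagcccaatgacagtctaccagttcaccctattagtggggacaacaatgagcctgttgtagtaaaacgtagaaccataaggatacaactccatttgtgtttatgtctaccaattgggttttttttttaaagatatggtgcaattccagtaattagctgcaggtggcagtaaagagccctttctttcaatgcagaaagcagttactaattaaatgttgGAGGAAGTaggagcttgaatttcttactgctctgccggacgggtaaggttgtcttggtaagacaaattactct
Tlr6, chr5:64959117-64959416, minus strand: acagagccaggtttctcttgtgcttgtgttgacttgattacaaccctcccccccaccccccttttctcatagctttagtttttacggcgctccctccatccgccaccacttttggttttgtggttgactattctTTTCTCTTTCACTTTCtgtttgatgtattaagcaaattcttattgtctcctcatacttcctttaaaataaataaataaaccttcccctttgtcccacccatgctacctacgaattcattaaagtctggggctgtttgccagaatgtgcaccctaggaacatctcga
Tlr3, chr8:45410331-45410630, minus strand: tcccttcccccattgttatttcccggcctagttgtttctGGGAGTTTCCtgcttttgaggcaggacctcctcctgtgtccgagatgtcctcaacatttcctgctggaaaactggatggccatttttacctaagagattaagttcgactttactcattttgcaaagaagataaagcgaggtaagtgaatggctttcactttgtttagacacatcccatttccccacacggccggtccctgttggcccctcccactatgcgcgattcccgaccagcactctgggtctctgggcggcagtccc
Tlr9, chr9:106222348-106222647, plus strand: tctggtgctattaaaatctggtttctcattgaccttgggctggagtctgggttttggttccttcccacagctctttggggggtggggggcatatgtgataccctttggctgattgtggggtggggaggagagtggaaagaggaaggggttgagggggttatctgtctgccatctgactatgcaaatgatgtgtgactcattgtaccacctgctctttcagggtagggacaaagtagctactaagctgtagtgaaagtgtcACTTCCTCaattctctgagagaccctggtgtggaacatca
A second window each for Tlr1 and Tlr6 and those of Tlr8 and Tlr13 held none of these letters.

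Levels of different genes were compared in the deposited TPM, which are scaled for gene length. In vehicle ears Cd14 was highest at 18.5 ± 1.56 TPM, followed by Tlr2 at 7.29 ± 0.390, Tlr7 at 5.87 ± 0.0854, Tlr4 at 5.54 ± 0.446 and Tlr3 at 4.47 ± 0.462 TPM. Tlr8, Tlr13 and Tlr9 followed at 3.40, 2.99 and 1.33 TPM, and Tlr6 and Tlr1 were lowest at 0.787 and 0.730 TPM. Neighbours in this order overlapped between Tlr7 and Tlr4, between Tlr8 and Tlr13, between Tlr9 and Tlr6 and between Tlr6 and Tlr1. In DNFB ears Cd14 stood apart at 448 ± 200 TPM. Tlr2 followed at 51.4 ± 18.0, Tlr13 at 46.5 ± 24.0, Tlr1 at 25.4 ± 7.76, Tlr8 at 21.8 ± 7.62, Tlr4 at 15.1 ± 2.51, Tlr7 at 13.8 ± 4.50, Tlr6 at 13.7 ± 5.69 and Tlr9 at 9.47 ± 3.01 TPM. Each neighbouring pair from Tlr2 down to Tlr9 overlapped, and Tlr3 lay below all of them at 5.04 ± 0.451 TPM.

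The summed TPM of the 9 receptor genes was 32.4 ± 2.14 in vehicle ears and 202 ± 71.1 in DNFB ears. Tlr1 made up 2.23% ± 0.499 of that sum in vehicle ears and 12.8% ± 1.08 in DNFB ears, Tlr6 2.41% ± 0.416 and 6.70% ± 1.02, and Tlr13 9.19% ± 0.988 and 21.8% ± 5.06. Tlr2 was the largest part on average in both groups and differed little, 22.5% ± 0.357 and 25.4% ± 0.593. Genes that rose less or did not pass made up less of the sum in DNFB ears: Tlr3 13.8% ± 1.12 and 2.84% ± 1.49, Tlr4 17.1% ± 0.570 and 7.91% ± 1.90, and Tlr7 18.2% ± 1.16 and 6.96% ± 1.03. For these 7 genes the groups did not overlap, which in an exact two-sided permutation test gives p = 0.1, the smallest that 3 against 3 allows (0.129 after Benjamini-Hochberg adjustment over the 9 genes). With the ears exchanged only within mice the exact permutation p was 0.25 for these genes, the smallest that 3 pairs allow (0.321 adjusted). Tlr8 held 10.5% ± 0.957 and 10.9% ± 1.15 and Tlr9 4.09% ± 1.31 and 4.73% ± 0.271 (exact permutation p = 0.7 for each). These shares depend on the genes summed. Of the planned sum over all 10 genes, Cd14 made up 36.3% ± 1.74 in vehicle ears and 68.0% ± 3.56 in DNFB ears. There Tlr2 held less in DNFB ears, 14.3% ± 0.520 and 8.12% ± 0.822, as did Tlr8, 6.70% ± 0.666 and 3.51% ± 0.708. Tlr13 held 5.86% ± 0.763 and 6.88% ± 1.17, with overlapping groups (exact permutation p = 0.4). Tlr1 and Tlr6 again held more in DNFB ears and Tlr3, Tlr4 and Tlr7 less.

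**Figure D3:**
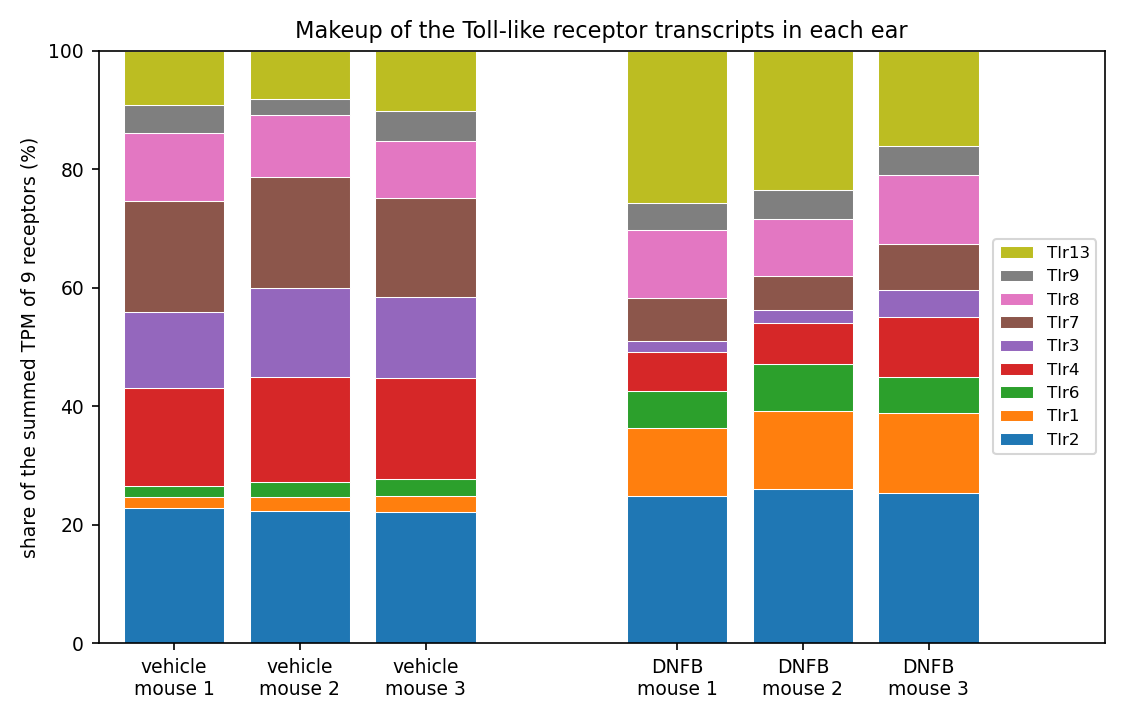
Stacked bars of the share of each of the 9 receptor genes in their summed TPM, in percent, 1 bar per ear. The shares of Tlr1, Tlr6 and Tlr13 are larger in DNFB ears, and those of Tlr3, Tlr4 and Tlr7 smaller.

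Ratios between genes of the set were computed within each ear from TPM for 7 pairs, some partners of one complex or pathway and others neighbours or receptors of different ligands. Cd14 over Tlr4 was 3.29, 3.52 and 3.20 in the vehicle ears of mice 1, 2 and 3 and 32.9, 35.4 and 17.8 in their DNFB ears. Tlr2 over Tlr4 was 1.39, 1.27 and 1.30 in vehicle ears and 3.75, 3.72 and 2.51 in DNFB ears. Both ratios were lowest in mouse 3 among DNFB ears, and neither overlapped between groups. Tlr8 over Tlr7 was 0.611, 0.555 and 0.570 in vehicle ears and 1.59, 1.64 and 1.49 in DNFB ears, so Tlr8 was below its neighbour in every vehicle ear and above it in every DNFB ear. Tlr1 over Tlr6 was 0.867, 0.925 and 0.969 in vehicle ears and 1.87, 1.67 and 2.25 in DNFB ears. This ratio is subject to the shared reads described above. Its vehicle values rest on few estimated counts, 17.3, 25.7 and 30.8 of Tlr1 and 20.8, 32.7 and 31.6 of Tlr6. Whether they lie below 1 is therefore uncertain. Tlr1 over Tlr2 went from between 0.0738 and 0.120 to between 0.464 and 0.537. Each of the 7 ratios was apart between groups, with an exact two-sided permutation p of 0.1, the smallest that 3 against 3 unpaired libraries allow (0.1 after adjustment over the 7). With the ears exchanged only within mice the exact permutation p was 0.25 for each, the smallest that 3 pairs allow. The ratios were not among the planned comparisons. They join genes whose unlike fold changes are given above, so their separation restates those changes and is no separate support.

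The genes whose profile over the 6 libraries lay nearest to that of each gene were found among all named genes of sufficient level, by the root mean square difference of centred log2 CPM. Tlr2 lay nearest to Marcksl1 at 0.0326 and Cotl1 at 0.0728, both of which encode actin-associated proteins. Nearest to Tlr1 were Hk3, a hexokinase, at 0.217, Rtn4rl2 at 0.253 and Clec7a, the beta-glucan receptor dectin-1, at 0.257. Tlr6 lay nearest to Upp1, a uridine phosphorylase, at 0.115. Tlr4 lay nearest to Ifnar2, a subunit of the type I interferon receptor, at 0.0346. Tlr8 lay nearest to Cfp, which encodes properdin, at 0.0677 and to Alox5ap, needed for leukotriene synthesis, at 0.0768, and Tlr7 nearest to Klrb1b, a lectin-like receptor of natural killer cells, at 0.0675. Tlr13 lay nearest to Cd300ld at 0.138, Tlr9 to Rasal3 at 0.110 and Cd14 to Cyp4f18 at 0.166. Tlr3 lay nearest to Ccdc137 at 0.0353. The measure is taken over 6 libraries in 2 groups, so genes of similar fold change lie near each other.

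Of the other Toll-like receptor genes, Tlr5, the flagellin receptor, measured 12.3 ± 1.44 CPM in vehicle ears against 15.4 ± 3.56 CPM in DNFB ears (log2 fold change 0.33 ± 0.20, adjusted p = 0.199), but had an adjusted p of 0.0117 when the DNFB ear of mouse 3 was left out and of 0.0127 when both ears of that mouse were. Tlr11, whose product binds profilin of protozoa in mice, was low in both groups, at 0.782 ± 0.0405 and 1.07 ± 0.502 CPM (adjusted p = 0.377). Tlr12, its partner, had 3 counts over the vehicle libraries and 96 over the DNFB libraries, a ratio of 31.9 with a 95% counting interval of 10.6 to 157. The DNFB libraries of mice 1, 2 and 3 held 56, 30 and 10 of these counts. The counting interval does not take in the spread among mice. In the fit Tlr12 was 28.5-fold higher (95% interval 6.08 to 134, adjusted p = 0.00514), with an adjusted p of 0.0703 without both ears of mouse 2. Its fitted log2 fold change, 4.83, was 5.67 without the vehicle ear of mouse 3 and 6.09 without both ears of mouse 3.

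Around the receptors, 10 lists of pathway genes were examined, in which 111 genes were tested. Of these 86 were higher, 4 lower and 21 not called, against 25.9% higher and 25.4% lower across all genes tested. The median log2 fold change of the 111 genes was 1.47. Without both ears of mouse 2, 64 were called higher, and without those of mouse 1, 71. Among 6 co-receptor and ligand carrier genes, 4 were higher and 2 lower. Ly86, which encodes the MD-1 protein, rose from 14.9 ± 0.702 to 68.9 ± 14.0 CPM (2.21 on the log2 scale, adjusted p = 0.000122), and Cd180, its partner, from 3.96 ± 1.53 to 21.2 ± 3.18 CPM (2.42, adjusted p = 0.000596). Ly96, the obligate partner of TLR4, rose from 7.38 ± 0.954 to 14.9 ± 0.837 CPM (1.02, adjusted p = 0.00116). Lbp, the carrier that brings lipopolysaccharide to CD14, rose from 97.2 ± 1.86 to 171 ± 41.8 CPM (0.82, adjusted p = 0.00759), a call lost without both ears of mouse 1 or of mouse 2, where the adjusted p reached 0.0786. Both genes that were lower have roles beside the receptors: Cd36, a fatty acid and lipoprotein scavenger receptor, fell from 241 ± 26.1 to 102 ± 15.1 CPM (−1.24, adjusted p = 0.000620), and Tril, an accessory of TLR4 and TLR3, from 21.3 ± 5.32 to 8.86 ± 2.05 CPM (−1.26, adjusted p = 0.00436).

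Of 12 chaperone and endosomal processing genes 8 were higher and 4 not called (median log2 fold change 0.50). Of the higher ones, Cnpy3, Slc15a4 and Ctsl lost their call in some fits with libraries or mice left out (adjusted p up to 0.261). Unc93b1, which carries the nucleic acid receptors to endosomes, measured 45.8, 42.9 and 45.2 CPM in vehicle ears against 299, 267 and 157 CPM in DNFB ears (log2 fold change 2.43 ± 0.24, adjusted p = 0.000348). It was lowest in mouse 3 among DNFB ears, as were the receptors that rose. The cysteine proteases of endosomes Ctss and Lgmn rose with log2 fold changes of 2.66 and 2.58, whereas Ctsk gave −0.17 (adjusted p = 0.171) and Tmed7, which helps TLR4 leave the endoplasmic reticulum, −0.09 (adjusted p = 0.398).

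Among 6 adaptor genes 5 were higher (median 1.46). Myd88, the adaptor of every Toll-like receptor of the set but TLR3, measured 46.9, 45.7 and 38.5 CPM in vehicle ears against 144, 145 and 162 CPM in DNFB ears (log2 fold change 1.78 ± 0.11, adjusted p = 8.39e-05). Here the DNFB ear of mouse 3 was the highest of the 3. Pik3ap1, an adaptor that links the receptors to phosphoinositide 3-kinase, rose from 8.26 ± 2.59 to 109 ± 32.5 CPM (3.72, adjusted p = 0.000231). Ticam2, the bridging adaptor of TLR4, had a log2 fold change of 1.55 (adjusted p = 0.00447, and 0.0800 without both ears of mouse 2). Ticam1, at 0.56 (adjusted p = 0.00398), also lost its call without both ears of mouse 2 (adjusted p = 0.0710). Sarm1 did not pass (−0.63, adjusted p = 0.129).

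Of 17 kinase and ubiquitin ligase genes 9 were higher, 2 lower and 6 not called (median 0.44). Of the higher ones, Irak2, Traf3, Chuk, Map3k8 and Ube2n lost their call in some fits with libraries or mice left out (adjusted p up to 0.171). Irak4 rose by 1.26 and Ikbke by 1.17 on the log2 scale, and Irak1, which acts just after Irak4, gave 0.13 (adjusted p = 0.259). The lower genes were Peli1, a ubiquitin ligase, at −0.40 (adjusted p = 0.0127, and 0.0531 with the mouse as a block), and Tab3, a partner of the kinase TAK1, at −0.38 (adjusted p = 0.0159, and 0.0614 with the block). Of 12 transcription factor genes 11 were higher (median 1.67), with Irf1 at 3.31, Irf8 at 3.19 and Irf7 at 2.69, while Irf3, which TRIF activates through phosphorylation, gave 0.13 (adjusted p = 0.322). Fos, at 2.16 (adjusted p = 0.0454), lost its call with another scaling and in several fits with libraries or mice left out. Its log2 fold change ran from 1.49 to 3.87 in the leave-out fits. Rela lost its call without both ears of mouse 2 (adjusted p = 0.0640). Of 17 inhibitor genes 14 were higher (median 1.81), led by Il1rl1 at 4.56 and Socs3 at 4.24, and Tollip gave −0.13 (adjusted p = 0.409). Among the higher inhibitor genes, Nfkbia, Tnfaip3, Tnip1 and Dusp1 lost their call in some fits with libraries or mice left out (adjusted p up to 0.186).

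**Figure D4:**
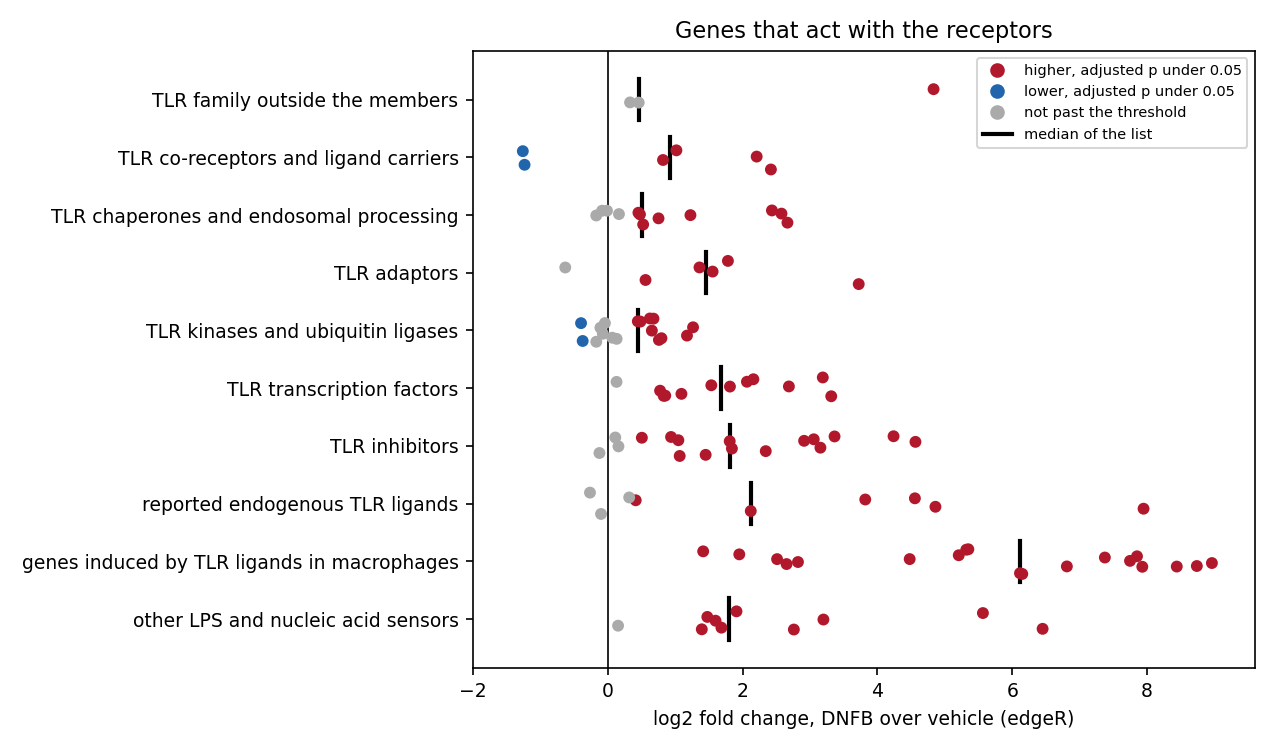
Log2 fold change of DNFB over vehicle ears for each tested gene of the 10 pathway lists, 1 row per list. Points are red (higher) or blue (lower) for an adjusted p under 0.05 and grey for genes not past the threshold. Black bars mark the list medians. The genes that receptor ligands induce in macrophages lie farthest to the right, with a median of 6.12. The kinases and ubiquitin ligases lie nearest to 0, with a median of 0.44.

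Of 9 tested genes for reported endogenous ligands 6 were higher (median 2.12), and 1 of these, the chaperone gene Hspd1, lost its call in the fit that blocks on the mouse (0.0306 without and 0.0830 with that block, both adjusted p) and without any 1 of the mice. Saa3, an acute-phase protein gene, rose from 1.95 ± 0.832 to 483 ± 254 CPM (log2 fold change 7.95), and S100a9, a subunit of calprotectin and also one of the neutrophil markers, from 25.2 ± 13.7 to 732 ± 255 CPM (4.86). The matrix gene Bgn gave −0.27 (adjusted p = 0.131). All 19 tested genes that receptor ligands induce in macrophages were higher (median 6.12), with the cytokine Il6 at 8.96 (9.86 without both ears of mouse 3), Acod1, which makes itaconate, at 8.74 and Ccl4, a chemokine, at 8.44. Whether receptor ligands raised them in these ears was not tested. Of the 19, Nos2 lost its call with limma-voom and without both ears of mouse 2 (adjusted p = 0.0565), and Marco without the vehicle ear of mouse 2 or without both ears of mouse 1 or of mouse 2 (adjusted p up to 0.103). Of 10 genes for other sensors of lipopolysaccharide and nucleic acids 9 were higher (median 1.80), led by the inflammasome gene Nlrp3 at 6.45 and Zbp1, a sensor of Z-form nucleic acids, at 5.57. Aim2, among the higher ones, lost its call without both ears of mouse 2 (adjusted p = 0.0514). Sting1, the adaptor of cytosolic DNA sensing, rose from 14.2 ± 1.33 to 130 ± 4.98 CPM (3.20), and Casp4, the mouse gene for the cytosolic lipopolysaccharide sensor caspase-11, from 7.28 ± 1.21 to 49.4 ± 3.57 CPM (2.76, adjusted p = 4.36e-05).

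Markers of neutrophils, of monocytes and macrophages and of T and NK cells were higher in DNFB ears, and the other leukocyte lists were less uniform. The counts below stand beside 25.9% higher and 25.4% lower across all genes tested. All 10 neutrophil markers were higher, their summed level being 40.1 to 84.1 CPM in vehicle ears and 1175 to 2666 CPM in DNFB ears, lowest in mouse 3, and Mrgpra2b was at 0 in every vehicle ear. All 12 monocyte and macrophage markers were higher, with sums of 1284 to 1447 and 3863 to 6020 CPM, again lowest among DNFB ears in mouse 3. All 7 tested T and NK cell markers were higher, with sums of 33.3 to 41.0 and 71.9 to 167 CPM. Of 10 dendritic and Langerhans cell markers 6 were higher and 2, Cd207 and Epcam, lower, with sums of 516 to 658 and 1265 to 1800 CPM. Of 8 plasmacytoid dendritic cell markers 4 (Siglech, Bst2, Pacsin1 and Klk1) were higher and 3 (Ly6d, Tcf4 and Cox6a2) lower, with sums of 1995 to 2356 and 768 to 1456 CPM. Of 4 tested B cell markers 2, Cd79b and Cd22, were higher, with sums of 37.4 to 43.9 and 24.1 to 49.7 CPM over the list, and Ms4a1 was at 0 in every vehicle ear. Of 8 keratinocyte markers 3, Krt10, Lor and Flg2, were lower and none higher, with sums of 16287 to 21514 and 8077 to 13997 CPM. Of 7 fibroblast markers Col1a1 and Pdgfra were higher and Dcn and Dpt lower, with sums of 10085 to 10482 and 9302 to 11228 CPM. Of 7 endothelial markers Pecam1 and Cdh5 were higher and Cldn5 lower, with sums of 237 to 283 and 289 to 405 CPM. The part of these cell types in the changes of the receptor genes was not tested.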

How the data were processed

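RNA of whole ears was read as single-end reads of 50 bases from oligo(dT)-selected libraries, per the labels' protocols. The authors deposited, for each gene and library, estimated counts of reads, with decimals in part of the genes, together with TPM and FPKM values, per the file headers. Counts that were not whole made up 32.7% to 34.5% in the vehicle ears and the DNFB ear of mouse 1. In the DNFB ears of mice 2 and 3 they made up 56.3% and 58.4%. The sources used here give no reason for this difference. HISAT and build GRCm39 are named in the submitters' processing notes. For the counting tool, the annotation and strandedness the sources used here give nothing, so reads of overlapping or antisense genes cannot be told apart. The deposited mean columns were not used. FPKM served as an alternative for the shares.

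Estimated counts were rounded to whole numbers, filtered with edgeR's filterByExpr (minimum count 10), scaled by TMM (factors 0.984 to 1.036) and tested with edgeR 4.0.16 (quasi-likelihood test, R 4.3.3) over all 15317 genes passing the filter, 3 DNFB against 3 vehicle ears, with Benjamini-Hochberg adjustment and a threshold of 0.05. CPM are TMM-scaled. Alternatives used DESeq2 1.42.0, limma 3.58.1 (voom), other scalings and filters, a block for the mouse, and leaving out each library and each mouse. The scripts were tested on simulated data. Both ears of a number come from 1 mouse, so the numbers pair the samples. Deviations of the ears of a mouse from their group means correlated at −0.03, −0.15 and −0.05 across genes in mice 1, 2 and 3. Shares and ratios of TPM were compared by exact permutation tests in scipy 1.17.1, over libraries and, added after the data were seen, within mice. The ratios were not among the planned comparisons.

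The genes and lists were chosen with earlier results of these data known. The rule for named genes took from each pathway and marker list at most 4 called genes, those that changed most, at most 2 genes of high level that did not pass, and the 3 genes of nearest profile for each gene of the set. The text gives part of these. It also names genes outside the rule, chosen after their values were seen, among them Ly96, Lbp, Peli1, Tab3, Hspd1, Nos2, Marco and several cell markers. Other genes that lost their call in some fits are named as well. Chromosomes come from an annotation table and promoters from RefSeq GRCm38.p6. Neither supplies coordinates for the counts.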

Additional observations from a re-analysis of the deposited data

How the results depend on the processing

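Over 16 alternatives the 10 genes kept their direction and their side of the threshold in 159 of 160 results, the exception being Tlr7 without both ears of mouse 2. The number of the 10 genes called higher was 9 under every other alternative and ranged from 8 to 9 when libraries or mice were left out. The number of all genes called, 7862, was 6601 with the replicate block and ranged from 2594 (without mouse 2) to 9108 (without the DNFB ear of mouse 3) when libraries or mice were left out, with 4487 without mouse 1. Fewer libraries enter those fits. Pathway genes called higher numbered 86 and ranged from 64 to 87. Pathway genes called lower numbered 4 and ranged from 2 to 4, and with the replicate block 2 were called, Cd36 and Tril, while Peli1 and Tab3 had adjusted p of 0.0531 and 0.0614. Hspd1 also lost its call with the block (0.0830). The block changed no call among the 10 genes. When libraries or mice were left out, log2 fold changes of genes that had not passed crossed 0 for Cyld (−0.015 to 0.31), Fn1 (−0.013 to 0.60), Nod1 (−0.0026 to 0.30), Tollip (−0.22 to 0.040), Cnpy4 (−0.15 to 0.10), Ikbkg (−0.0028 to 0.16) and Sigirr (−0.019 to 0.25). Of these genes, Fn1 passed the threshold without both ears of mouse 3 (edgeR adjusted p = 0.0254). The cause of these shifts was not tested. With FPKM in place of TPM the shares of the 10-gene sum kept their direction, and the exact permutation p for Tlr13 was 0.3 against 0.4. Added after the data were seen, the 7 TPM ratios kept their direction without each mouse, and the sum of Tlr1 and Tlr6 was computed. Vehicle counts were lowest for Tlr1, Tlr6 and Tlr9. The largest standard errors belonged to Tlr13 (0.45), Cd14 (0.39) and Tlr6 (0.39). The p-values measure the spread among ears of 3 mice.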
